A study of Mus musculus with 12 samples.

Results

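The genes described here are 10 enzymes and partner proteins that turn arachidonic acid into prostaglandins and leukotrienes: Ptgs1, Ptgs2, Ptges, Ptgds, Hpgds, Hpgd, Alox5, Alox5ap, Lta4h and Ltc4s. Every probe set whose only annotated symbol was on this list was taken, whatever its values, which gave 16 of the 45101 probe sets on the array and 9 of its 18193 genes. Ptgs1, the constitutive cyclooxygenase, carried no probe set in the annotation used here and was not analysed. All 16 probe sets passed the filter on dim signals.

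The study compared whole ears of wild-type C57BL/6J mice with those of Cnr1-/-/Cnr2-/- mice, which lack both cannabinoid receptors, CB1 and CB2. All 6 mice were females of 8 to 10 weeks, 3 per genotype. All had been sensitized on the shaved abdomen, on 2 consecutive days, with 50 µl of 0.2% DNFB (1-fluoro-2,4-dinitrobenzene), a contact allergen used to provoke contact hypersensitivity. On day 5 the right ear received DNFB at 0.3% in a volume of 10 µl, and the left ear was left untreated, giving 4 groups of 3 arrays: wild-type control, wild-type DNFB, knockout control and knockout DNFB ears. The control ears therefore came from sensitized animals too, and the 2 ears of a mouse are paired. No group had ears painted without DNFB, and none came from unsensitized mice. Effects of the painting, the side of the ear, irritation and allergy thus cannot be told apart. Per the labels the ears were taken 48 h after the second challenge, although their protocol describes a painting of the ears on 1 day only. The labels name C57BL/6J for the wild type and give no strain background for the knockout.

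Prostaglandin synthesis starts with the cyclooxygenases, which convert arachidonic acid to a short-lived endoperoxide, and terminal synthases then make prostaglandin E2 (Ptges) or prostaglandin D2 (Ptgds and Hpgds) from it. Leukotriene synthesis starts with arachidonate 5-lipoxygenase (Alox5), which needs the membrane protein FLAP (Alox5ap), and branches to leukotriene B4 through Lta4h or to the cysteinyl leukotrienes through Ltc4s. In skin, prostaglandin E2 and leukotriene B4 are known for their part in inflammation, and Ptgs2 also oxidizes endocannabinoids.

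Promoter windows from RefSeq (build GRCm38.p6) were found for 9 of the 10 genes, Alox5ap being the exception. Each window holds 250 bases before the annotated start of transcription and the 50 bases from it, so it ends inside the annotated transcript. The Ptges and Ptgds windows lie inside their annotated genes (chr2:30889471-30931020 and chr2:25466709-25470110), so the starts used are not the outermost ones. The windows of Ptgs2 and Ptges, which were higher after DNFB, and of Ptgds and Ltc4s, which were lower, are shown 5′ to 3′ on the strand of the gene. Matches to the searched motifs are in capitals.
Ptgs2, chr1:150099781-150100080, plus strand: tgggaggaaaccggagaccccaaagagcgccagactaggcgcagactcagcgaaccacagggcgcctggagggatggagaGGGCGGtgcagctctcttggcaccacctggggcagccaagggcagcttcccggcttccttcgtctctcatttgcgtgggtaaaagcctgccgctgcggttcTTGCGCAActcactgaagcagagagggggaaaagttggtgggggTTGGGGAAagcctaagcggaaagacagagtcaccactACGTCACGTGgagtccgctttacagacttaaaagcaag
Ptges, chr2:30903248-30903547, minus strand: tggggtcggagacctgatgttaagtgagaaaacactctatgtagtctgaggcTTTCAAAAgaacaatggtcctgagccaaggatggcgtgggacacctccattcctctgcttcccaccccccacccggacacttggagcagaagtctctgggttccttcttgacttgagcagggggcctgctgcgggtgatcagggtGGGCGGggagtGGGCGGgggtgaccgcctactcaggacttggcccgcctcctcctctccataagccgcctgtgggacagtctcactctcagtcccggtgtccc
Ptgds, chr2:25469700-25469999, minus strand: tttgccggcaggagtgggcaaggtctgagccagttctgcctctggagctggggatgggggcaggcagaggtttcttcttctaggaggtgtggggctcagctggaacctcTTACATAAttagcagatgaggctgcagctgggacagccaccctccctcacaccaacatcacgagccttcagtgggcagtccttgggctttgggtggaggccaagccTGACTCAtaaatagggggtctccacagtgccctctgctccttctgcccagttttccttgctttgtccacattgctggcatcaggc
Ltc4s, chr11:50238483-50238782, minus strand: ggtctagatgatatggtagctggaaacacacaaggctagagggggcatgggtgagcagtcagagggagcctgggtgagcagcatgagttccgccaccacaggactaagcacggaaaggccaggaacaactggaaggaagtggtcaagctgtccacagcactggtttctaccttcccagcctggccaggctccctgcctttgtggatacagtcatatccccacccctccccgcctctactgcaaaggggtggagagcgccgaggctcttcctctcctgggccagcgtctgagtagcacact

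Both strands of these windows were searched for 6 motifs: TGACGT (CRE half-site), CACGTG (E-box), TTNNGNAA (C/EBP), TGANTCA (AP-1), GGGCGG (GC box) and the TATA box, which was searched for as TATAAA. Positions are counted from the annotated start, which was not checked otherwise. The Ptgs2 window held a CRE half-site and an E-box that overlap each other just after this start. It also held C/EBP matches beginning 69 and 25 bases before the start, and a GC box 170 bases before it. The Ptges window held a C/EBP match 198 bases and GC boxes 53 and 42 bases before the start. That of Ptgds held a C/EBP match at 141 and an AP-1 match at 35 bases before the start, and the Ltc4s window held none of the 6. Among all 32544 RefSeq windows of this length, 7.55% held the CRE half-site, 7.17% the E-box, 40.7% the C/EBP motif, 7.79% the AP-1 motif, 35.9% the GC box and 13.6% the TATA box. A match describes these letters only.

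Values are GCRMA intensities on a linear scale, 1 per probe set and array, where 16 was taken as the lower limit of a usable signal. Array medians lay between 24.7 and 30.1, and 57.7% to 61.5% of probe sets reached 16. Arrays of the same group correlated at r = 0.957 to 0.971 across probe sets. The 3 probe sets of the deleted genes Cnr1 and Cnr2 were dim, with group means of 8.01 to 12.9 for Cnr1, and for Cnr2 12.7 and 24.0 in wild-type control and DNFB ears against 13.8 and 32.7 in the knockout ears. Where their probes lie relative to the deleted parts is not given in the sources used here, so they do not check the genotype labels. The instrument records give no run as such. From their hybridization times and fluidics module numbers, 3 runs of 4 arrays were inferred, split where the times lay more than 30 minutes apart, and are called washing runs here. The control ears of the wild type shared run 1 with the DNFB ear of wild-type mouse 1. Run 2 took the remaining 2 DNFB ears of the wild type together with control ears 1 and 2 of the knockout. Control ear 3 of the knockout shared run 3 with all DNFB ears of that genotype. Markers of ear tissue were present, keratinocyte markers summing to 33198 to 39516 on the 12 arrays.

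DNFB challenge raised the inducible cyclooxygenase Ptgs2, the prostaglandin E synthase Ptges, the prostaglandin D synthase Hpgds and the FLAP gene Alox5ap in both genotypes, and lowered Ptgds, Alox5 and Ltc4s in both. In wild-type ears 8 of the 16 probe sets rose, 3 fell and 5 did not pass, and in knockout ears 6 rose, 4 fell and 6 did not pass (limma, Benjamini-Hochberg adjusted over 29460 probe sets, threshold 0.05). Across the array 38.1% of the tested probe sets passed in wild-type ears (15.2% rose and 22.8% fell) and 39% in knockout ears (17% rose and 22% fell). By gene, with the brightest probe set standing for each, 5 rose and 3 fell in wild type and 4 rose and 3 fell in knockout ears, where 43% (19% up, 24% down) and 45.8% (21.2% up, 24.6% down) of 13383 genes passed. The median log2 change of the 16 probe sets was 0.27 in wild-type and 0.31 in knockout ears, beside -0.14 and -0.09 for all tested probe sets. Groups did not overlap for 12 of the 16 in each genotype, against 54.4% and 49% of all tested probe sets. Each change that passed had the same direction in the 3 mice of its genotype.

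**Figure D1:**
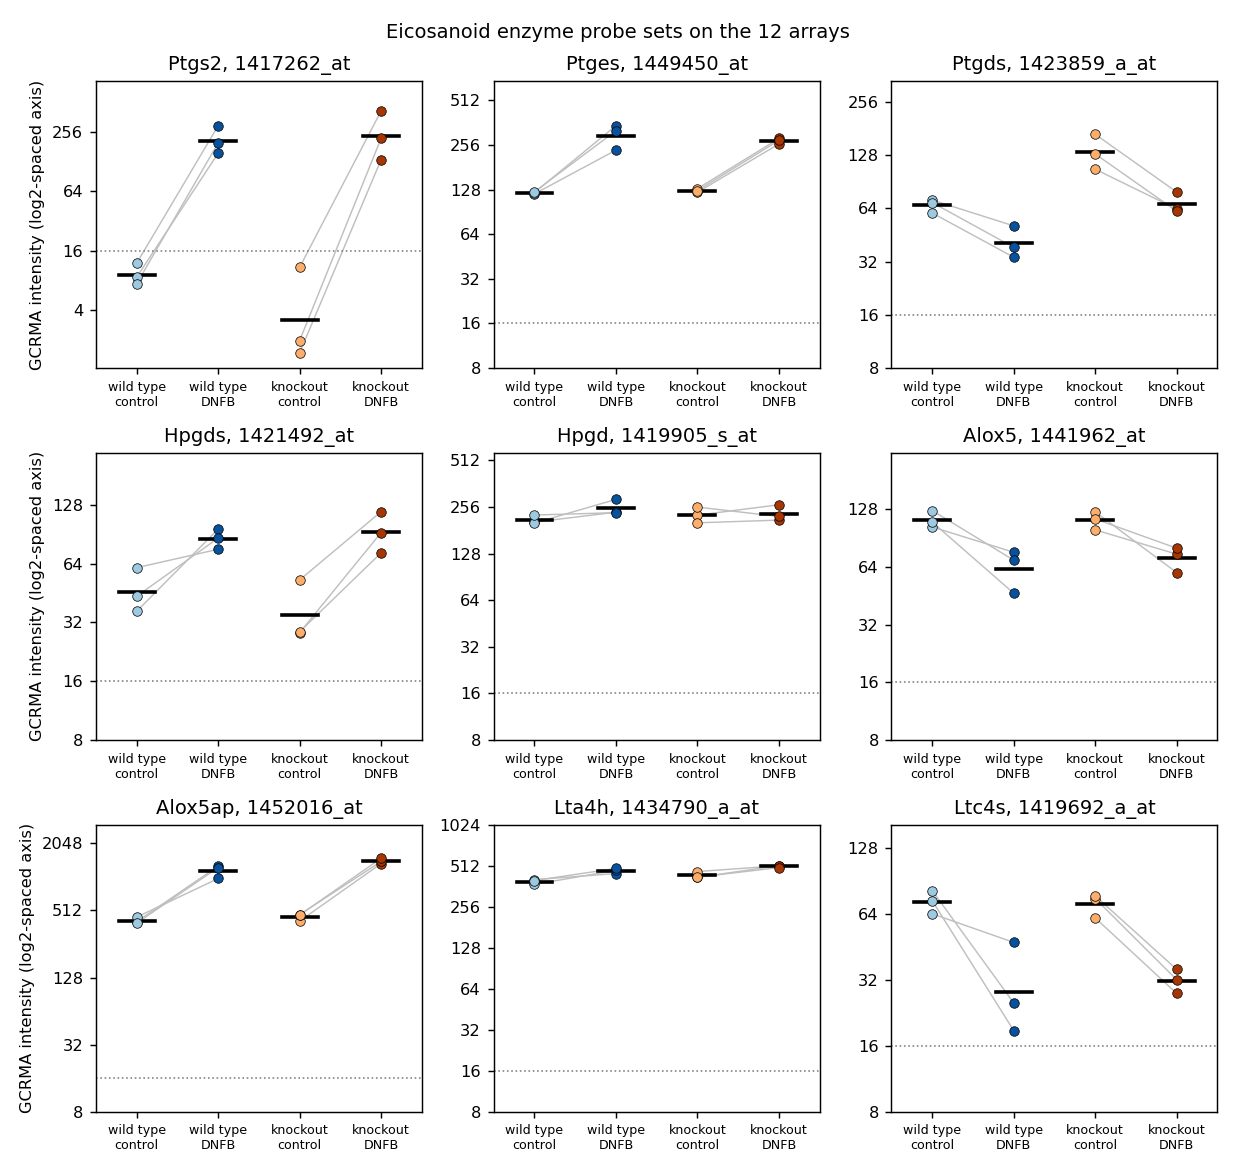
GCRMA intensity (log2-spaced axis) of the brightest probe set of each of the 9 genes in the 4 groups, with points for single ears, bars for the geometric mean of 3 ears, grey lines joining the ears of a mouse and a dotted line at 16. Ptgs2 lies below 16 in all 6 control ears and at 133 or above in all 6 DNFB ears, while Ltc4s and Alox5 are lower in every DNFB ear than in any control ear.

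Ptgs2, the inducible cyclooxygenase, was measured by 2 probe sets. The brighter, 1417262_at, read 8.65, 7.41 and 12.0 in wild-type control ears and 155, 197 and 293 in the DNFB ears of mice 1, 2 and 3. In knockout mice it read 1.49, 1.98 and 10.9 in control and 133, 219 and 414 in DNFB ears. All 6 control ears were thus below 16 and all 6 DNFB ears far above it, with no overlap. Against that limit of 16, Ptgs2 rose at least 13.0-fold in wild-type (adjusted p = 0.000618) and at least 14.4-fold in knockout ears (adjusted p = 7.7e-05, n = 3 per group). The second probe set, 1417263_at, ranged from 7.11 to 12.8 in the control ears of both genotypes and from 30.8 to 92.7 in the DNFB ears. It rose at least 4.00-fold and at least 3.72-fold (adjusted p = 0.000756 and 0.000689). Within a washing run, the control ears being below 16 again, 1417262_at was at least 9.67-fold higher in wild-type DNFB ear 1 than in its control ears, and at least 14.4-fold higher in the knockout DNFB ears than in control ear 3.

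Ptges encodes the microsomal prostaglandin E synthase that is commonly induced together with Ptgs2. Its brightest probe set, 1449450_at, read 119.6, 122 and 124 in wild-type control and 236, 345 and 319 in wild-type DNFB ears. The knockout ears read 123, 129.7 and 126 without and 259.7, 283 and 275 with DNFB. Control ears of both genotypes lay within a narrow band, and every DNFB ear was above it. Ptges rose 2.43-fold in wild-type (log2 1.28 ± 0.13 SE, adjusted p = 5.7e-05) and 2.16-fold in knockout ears (1.11 ± 0.13, adjusted p = 0.000113). Within a washing run, with only DNFB ear 1 in wild type and only control ear 3 in knockout mice, the differences were 0.95 and 1.11. A second probe set, 1449449_at, rose by 1.00 ± 0.12 and 0.71 ± 0.12. For the remaining 1439747_at, the log2 difference was 0.95 ± 0.20 in wild-type (adjusted p = 0.00437) and 0.34 ± 0.20 in knockout ears, where it did not pass (adjusted p = 0.216). The wild-type call of 1439747_at was lost with washing run as a block (adjusted p = 0.144). The difference between its responses, -0.62 ± 0.29 (knockout minus wild type), did not pass either (adjusted p = 0.803).

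The 2 prostaglandin D synthases moved in opposite directions. Hpgds, the hematopoietic form found in mast cells, macrophages and some T cells, read 36.5, 43.5 and 61.0 in wild-type control and 96.2, 86.6 and 75.8 in wild-type DNFB ears. Knockout control ears read 52.8, 28.4 and 28.7 and knockout DNFB ears 118, 92.4 and 72.7. DNFB ears lay above control ears in both genotypes, with control ear 3 of the wild type and control ear 1 of the knockout highest among the control ears. Hpgds rose by 0.90 ± 0.28 in wild-type (1.87-fold, adjusted p = 0.0281) and by 1.40 ± 0.28 in knockout ears (2.65-fold, adjusted p = 0.00295). Within a washing run, with only DNFB ear 1 in wild type and only control ear 3 in knockout mice, the differences were 1.07 and 1.69. The wild-type call was lost under 6 of 22 settings, among them the run as a block (adjusted p = 0.109) and leaving out control ear 1 (adjusted p = 0.100), control ear 2 (0.0753), DNFB ear 1 (0.0830) or DNFB ear 2 (0.0669).

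Ptgds, the lipocalin-type prostaglandin D synthase, which also carries lipophilic molecules, fell. Its brighter probe set, 1423859_a_at, read 71.3, 69.0 and 60.3 in wild-type control and 50.9, 38.6 and 33.9 in wild-type DNFB ears. In knockout mice the control ears read 106, 168 and 129.9 and the DNFB ears 63.4, 79.1 and 61.6. Each DNFB ear was lower than the control ear of its mouse and than all control ears of its genotype, and the knockout DNFB ears reached about the level of the wild-type control ears. The log2 change was -0.72 ± 0.20 in wild-type (1.65-fold lower, adjusted p = 0.0156) and -0.97 ± 0.20 in knockout ears (1.96-fold lower, adjusted p = 0.00317). The wild-type call was lost without control ear 1 (adjusted p = 0.0524) or DNFB ear 3 (0.0598) and with washing run as a block, where the change was -0.39 (adjusted p = 0.345). The dimmer 1423860_at fell by 0.91 ± 0.24 on the log2 scale in knockout ears (adjusted p = 0.0126), a call lost with the run block (0.110). Its change in wild-type ears, -0.44 ± 0.24, did not pass (adjusted p = 0.173).

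Hpgd, which inactivates prostaglandins by oxidizing them, did not pass in either genotype. Probe set 1419905_s_at, a type that can match transcripts of more than 1 gene, read 205, 202 and 227 in wild-type control and 237, 287 and 235 in wild-type DNFB ears. Knockout ears read 227, 203 and 256 without and 265, 211 and 223 with DNFB. The wild-type groups did not overlap and the knockout groups did. Its log2 differences were 0.26 ± 0.13 (95% interval -0.03 to 0.55, adjusted p = 0.148) and 0.03 ± 0.13 (-0.26 to 0.32, adjusted p = 0.892). The second probe set, 1419906_at, read 9.19 to 32.6 over the 12 arrays and did not pass.

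On the leukotriene side, Alox5ap rose. It encodes FLAP, the membrane protein that presents arachidonic acid to 5-lipoxygenase and is expressed mainly in myeloid cells. Wild-type control ears read 405, 445 and 394 and DNFB ears 1279, 989.5 and 1240.2. Knockout control ears read 411, 469 and 465 and DNFB ears 1348, 1409 and 1505. The lowest DNFB ear, wild-type ear 2, was well above the highest control ear, so the DNFB and control groups did not overlap. Alox5ap rose 2.81-fold in wild-type (1.49 ± 0.12, adjusted p = 1.3e-05) and 3.17-fold in knockout ears (1.67 ± 0.12, adjusted p = 5.9e-06). Within a washing run, with only DNFB ear 1 in wild type and only control ear 3 in knockout mice, the differences were 1.63 and 1.61.

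The lipoxygenase itself, Alox5, went the other way. Its only probe set, 1441962_at, is annotated through an accession that is not a RefSeq transcript. It read 103, 109.6 and 126 in wild-type control and 76.3, 46.6 and 69.3 in wild-type DNFB ears. Knockout control ears read 124, 99.8 and 114 and DNFB ears 59.7, 74.6 and 80.1. Every DNFB ear lay below every control ear. Alox5 fell 1.80-fold in wild-type (-0.84 ± 0.19, adjusted p = 0.00608) and 1.58-fold in knockout ears (-0.66 ± 0.19, adjusted p = 0.0194). With washing run as a block both calls were lost, at -0.56 (adjusted p = 0.179) and -0.68 (0.111). The knockout call was also lost without control ear 1 (adjusted p = 0.0640) or DNFB ear 1 (0.0678).

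Lta4h makes leukotriene B4, an attractant of neutrophils. Its brightest probe set, 1434790_a_at, read 406, 375 and 400.0 in wild-type control and 450.4, 475 and 491 in wild-type DNFB ears. Knockout ears read 422, 466 and 423 without and 515, 513 and 498 with DNFB. The groups did not overlap in either genotype, although the shift was small. The log2 change was 0.26 ± 0.08 in wild-type (adjusted p = 0.0299) and 0.22 ± 0.08 in knockout ears (adjusted p = 0.0573). The wild-type call was lost under 9 of 22 settings, including the mouse as a block (adjusted p = 0.0782), the run as a block (0.320) and leaving out any of the 3 control ears (0.0522, 0.103 and 0.0592), DNFB ear 2 (0.0716) or DNFB ear 3 (0.0941). The knockout difference passed under 4 settings, among them without control ear 2 (0.0474). The other 2 probe sets did not pass: 1426807_at gave -0.35 ± 0.25 and 0.53 ± 0.25, and 1453528_at was below 16 on most arrays.

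Ltc4s, the synthase of leukotriene C4, fell. Wild-type control ears read 73.5, 81.8 and 64.1 and wild-type DNFB ears 18.8, 25.1 and 47.4. In knockout mice control ears read 75.2, 61.4 and 77.3 and DNFB ears 32.0, 27.7 and 35.7. All DNFB ears were below all control ears, wild-type DNFB ear 3 being the closest to them. Ltc4s fell 2.58-fold in wild-type (-1.37 ± 0.28, adjusted p = 0.00378) and 2.24-fold in knockout ears (-1.16 ± 0.28, adjusted p = 0.00842). Within a washing run, with only DNFB ear 1 in wild type and only control ear 3 in knockout mice, the differences were -1.95 and -1.29.

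**Figure D2:**
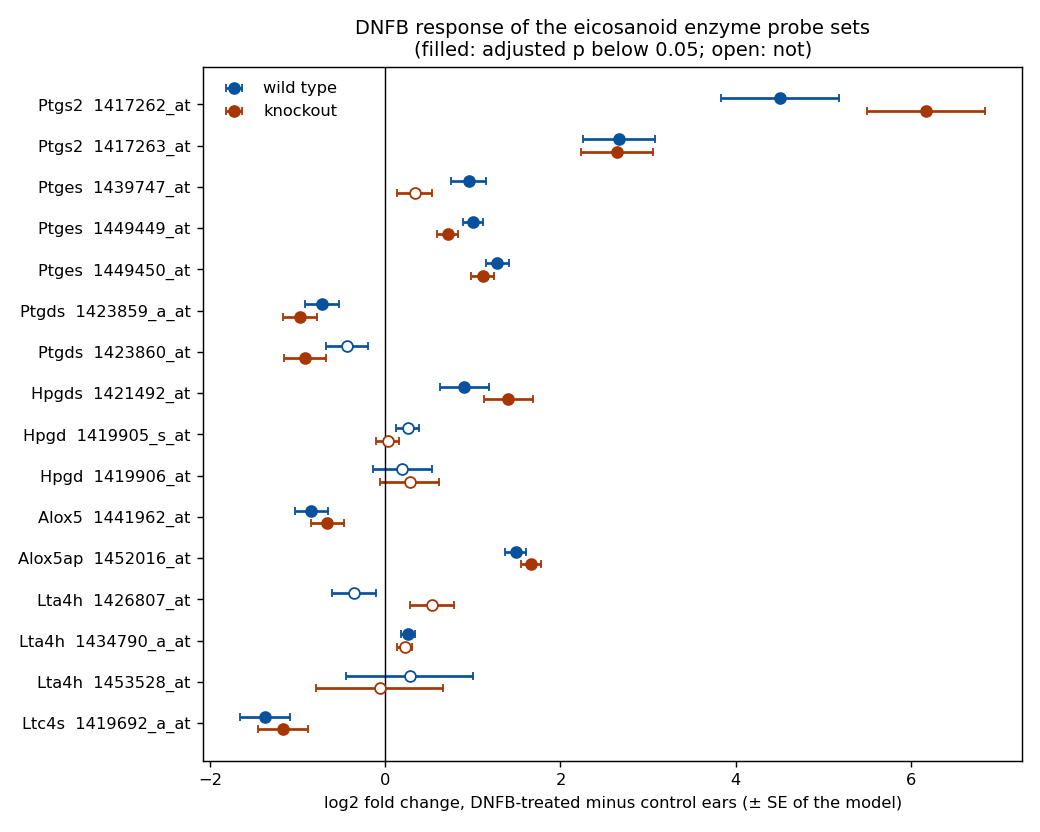
Log2 change from control to DNFB ears (x axis, bars ± SE of the model) for the 16 probe sets in wild-type and knockout ears, filled where the adjusted p is below 0.05. Ptgs2 stands at the far right, where the size of its change depends on control intensities below 16, and Ptgds, Alox5 and Ltc4s stand left of zero in both genotypes.

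Markers of several cell types moved with these changes. Beside the counts below, 19% of all tested genes rose and 24% fell in wild-type ears, and 21.2% and 24.6% in knockout ears. Of 12 listed neutrophil markers, 9 had a tested probe set, of which 8 rose and 1 fell in wild type and 7 rose and 1 fell in knockout ears. Their summed intensity was 879 to 1040.3 in wild-type control and 9945 to 13449.9 in wild-type DNFB ears, and 982 to 1642 and 8220.4 to 13264 in the knockout ears. All 11 tested monocyte and macrophage markers, of 12 listed, rose in both genotypes. Their sums were 3663 to 3922 in wild-type control and 10319.9 to 13392 in wild-type DNFB ears, and 3650.2 to 3921 and 11316 to 13348 in the knockout ears. Of 9 tested mast cell markers, of 10 listed, 1 rose and 1 fell in wild type, with sums of 1547 to 1699 in control and 1448 to 1891 in DNFB ears. In knockout ears 2 rose and 0 fell, with sums of 1588 to 1676 and 1852 to 2039.8. The basophil marker Mcpt8 was below 16 in all 6 control ears and rose at least 6.32-fold in wild-type and at least 5.85-fold in knockout ears, while Cd200r3, the other measured basophil marker, was below 16 on all 12 arrays. Of 4 eosinophil markers 2 were tested, and 1 of them, Siglecf, rose in wild-type ears, although its mean stayed below 16 there. In knockout ears Siglecf read 21.0 to 29.9 after DNFB and did not pass, and Epx was below 16 on all 12 arrays. Of 9 T and NK cell markers 5 rose in each genotype, with sums of 265 to 298 in wild-type control and 1238 to 1641 in wild-type DNFB ears, and of 301 to 309 and 1357 to 1629 in the knockout ears. Of 7 Langerhans and dendritic cell markers 3 rose and 1, Cd207, fell in each genotype. Mean Cd207 went from 170 to 26.4 in wild-type and from 201 to 33.3 in knockout ears. Hair follicle markers rose, 4 of 6 in each genotype, their sums going from at most 205 in control ears to 643 to 3597 in DNFB ears. Of the 7 fibroblast markers 4 fell in each genotype, with sums of 20933 to 25129.9 in wild-type control and 17155 to 18418 in wild-type DNFB ears, and of 23099.5 to 26005 and 19107 to 20153 in the knockout ears. Markers of other structures of the ear fell as well. Both tested Schwann cell markers, of 4 listed, fell in each genotype, with sums of 1152 to 1555 in the 6 control and 319 to 421 in the 6 DNFB ears. Of 4 cartilage markers 3 fell in each, with sums of 1544 to 2248 in control and 541 to 816 in DNFB ears, and of 5 skeletal muscle markers 4 fell in each, with sums of 6548 to 9660 and 3564 to 5996. Of 4 tested adipocyte markers 4 fell in wild-type and 2 in knockout ears, with sums of 4058 to 5572 and 2269 to 3927. Of 3 tested sebaceous gland markers, of 5 listed, 2 fell in wild-type and 3 in knockout ears. Of 7 keratinocyte markers 1 rose and 2 fell in wild-type ears, and 3 rose and 2 fell in knockout ears. Of 5 endothelial markers 1 fell in wild-type and 2 rose in knockout ears. In whole ears, fewer cells of a type, less RNA per cell and dilution by RNA of other cells cannot be told apart. The part of these cells in the changes of the enzymes was not tested.

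The comparison of genotypes asks whether the receptors alter these enzymes in resting or challenged ears. None of the 16 probe sets passed in DNFB ears, control ears or the difference of the DNFB responses (limma), where 0.119%, 0.149% and 0.00339% of all tested probe sets passed. At an unadjusted p under 0.05 there were 3, 4 and 1 of the 16, against 9.39%, 11.8% and 6.22% of all tested probe sets. Groups did not overlap for 3 of the 16 in DNFB ears (Ptgds, Alox5ap and Lta4h) and 3 in control ears (both probe sets of Ptgds, and Lta4h), against 15.1% and 18.3% of all tested probe sets. The genotypes were washed in different runs for each kind of ear. The log2 ratio of 3' to 5' control probe sets, a sign of RNA quality, was taken for Actb and Gapdh (± SD, n = 3). For Actb it was 0.66 ± 0.07 in wild-type and 0.48 ± 0.02 in knockout control ears, and 0.52 ± 0.08 and 0.42 ± 0.01 in DNFB ears. Gapdh gave -0.40 ± 0.08 and -0.38 ± 0.06 in control ears, and -0.35 ± 0.03 and -0.32 ± 0.06 in DNFB ears. The part of the runs and of RNA quality in any genotype difference was not tested.

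Ptgds gave the smallest unadjusted p of the 16 probe sets in both kinds of ear. With 1423859_a_at the knockout control ears, at 106 to 168, lay above the wild-type control ears, at 60.3 to 71.3, by 0.99 ± 0.20 on the log2 scale (95% interval 0.55 to 1.42, limma adjusted p = 0.120). In DNFB ears the knockout values, 61.6 to 79.1, lay above the wild-type values, 33.9 to 50.9, by 0.74 ± 0.20 (0.30 to 1.17, adjusted p = 0.294). The dimmer 1423860_at gave 0.65 ± 0.24 in control ears (adjusted p = 0.341) and 0.18 ± 0.24 in DNFB ears (adjusted p = 0.849). The control-ear difference passed under 4 of 22 settings, which were the filter at 64 (adjusted p = 0.0417), log2(intensity + 16) (0.0411), a variance trend with robust estimation (0.0250) and leaving out knockout control ear 1 (0.0458). With washing run as a block it was about 1.5 (adjusted p = 0.606). No run held control ears of both genotypes, so that estimate is indirect. It ties run 1 to the other runs through wild-type DNFB ear 1 alone, and its size is not firm. Of 5 listed sebaceous gland markers 3 had a tested probe set, and none of the 3 passed between genotypes in control ears. Their sum was higher in knockout control ears (1538 to 2132) than in wild-type control ears (877 to 993), through Elovl3. Mean Elovl3 was 826 in wild-type and 1820 in knockout control ears. Scd3 went the other way, from 77.4 to 56.6, and Mc5r read 33.4 and 38.9. The sums of the 3 markers in DNFB ears were 527 to 1013 in knockout and 596 to 636 in wild type. Other marker lists were not set beside Ptgds, and they held differences of either sign too. Mean Col1a1, a fibroblast marker, was 1367 in wild-type and 2047 in knockout control ears, while Dcn, another, was 7010 and 6663. None of the 7 fibroblast markers passed there. The part of any of these markers in the Ptgds values was not tested.

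For the other genes the intervals of the genotype difference in DNFB ears were as follows, on the log2 scale. Alox5ap was 0.29 ± 0.12 higher in knockout ears (95% interval 0.03 to 0.55, adjusted p = 0.482), the lowest knockout ear being 1348 and the highest wild-type ear 1279. Ptges differed by -0.12 (-0.41 to 0.17), Lta4h by 0.11 (-0.08 to 0.29) and Hpgd by -0.12 (-0.41 to 0.17). The intervals were wider for Alox5 (0.18, -0.24 to 0.60), Ltc4s (0.17, -0.46 to 0.80) and Hpgds (0.11, -0.51 to 0.73), and widest for Ptgs2 (0.15, -1.35 to 1.65), whose knockout DNFB ears spread from 133 to 414. In control ears Ptgs2 was below 16 in both genotypes, so no genotype fold is given. These intervals are of the brightest probe sets. For Ptges in DNFB ears, 1439747_at gave -0.47 (-0.92 to -0.02, limma adjusted p = 0.513) and 1449449_at -0.22 (-0.49 to 0.04). For Lta4h in control ears, 1426807_at gave -0.61 (-1.17 to -0.05, adjusted p = 0.394) and 1434790_a_at 0.15 (-0.03 to 0.33). The difference of the responses of 1426807_at was 0.89 (0.09 to 1.68, adjusted p = 0.776).

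**Figure D3:**
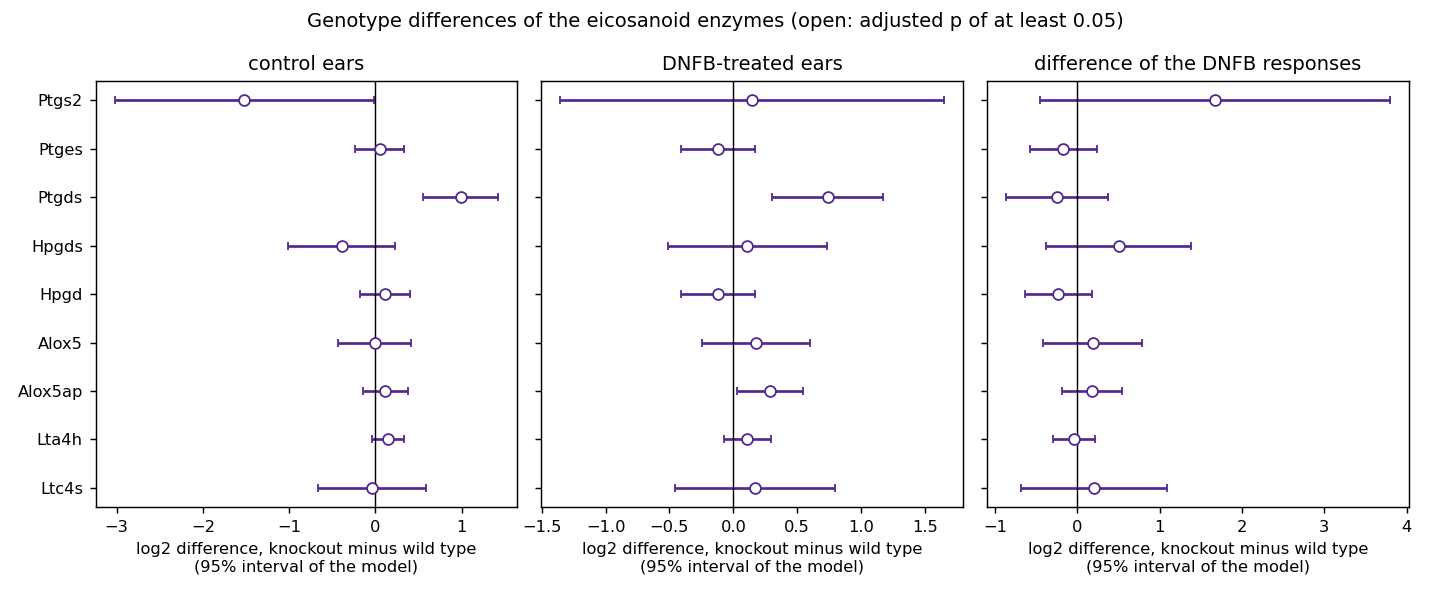
Log2 difference between knockout and wild-type ears for the brightest probe set of each gene in control ears, in DNFB ears and as the difference of the DNFB responses (points with the 95% interval of the model; all open, since no adjusted p is below 0.05). Ptgds lies right of zero in both kinds of ear, at 0.99 and 0.74, while the Ptgs2 values of the left and right panels rest on control intensities below 16. The Ptgs2 interval of the middle panel takes in their spread too, since the model shares 1 estimate of the spread over the groups.

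The other genes of the eicosanoid pathway were taken from a list of 58, of which 53 had a probe set and 50 were tested. In wild-type ears 13 rose and 19 fell, and the same counts, 13 and 19, were found in knockout ears, with median log2 changes of -0.14 and -0.12. Of all 13383 genes tested, 19% rose and 24% fell in wild-type ears, and 21.2% rose and 24.6% fell in knockout ears. Their median log2 changes were -0.08 and -0.06. These shares apply to the counts by class below as well, and several of those counts rest on few genes. Some of the listed phospholipases release arachidonic acid from membranes, while others, such as Pla2g7, have other substrates. Of 15 phospholipases tested, 4 rose and 4 fell in wild-type and 6 rose and 5 fell in knockout ears. Pla2g4e, a cytosolic phospholipase A2, rose by 1.85 ± 0.15 and 1.11 ± 0.15 (from 72.2 to 261 in wild type), and Pla2g7, which inactivates platelet-activating factor, by 2.05 ± 0.21 and 1.98 ± 0.21. The cytosolic Pla2g4d rose at least 2.10-fold in knockout ears and did not pass in wild-type ears (adjusted p = 0.0518). The secreted Pla2g5 fell, at -1.70 ± 0.18 and -1.82 ± 0.18, as did the secreted Pla2g2e, at least 2.93-fold in wild-type ears and by 1.54 ± 0.46 on the log2 scale in knockout ears.

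Among 7 other prostanoid synthases, 2 rose and 4 fell in wild type and 2 rose and 3 fell in knockout ears. Tbxas1, the thromboxane synthase, rose by 1.37 ± 0.28 and 1.28 ± 0.28, and the aldo-keto reductase Akr1b8 by 1.59 ± 0.11 and 1.67 ± 0.11. Ptgis, the prostacyclin synthase, went from geometric means of 398 to 189 in wild-type and from 459 to 206 in knockout ears (-1.08 ± 0.15 and -1.15 ± 0.15). Akr1c18, a reductase that also acts on progesterone, was the only listed gene to pass between genotypes. It was lower in knockout than in wild-type control ears (314 against 727, -1.21 ± 0.10, adjusted p = 0.000896), where 0.149% of all tested genes passed.

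Of 10 other leukotriene and lipoxygenase genes, 4 rose and 6 fell in wild type and 2 rose and 5 fell in knockout ears. Alox15, a lipoxygenase of alternatively activated macrophages and eosinophils, rose at least 3.31-fold and at least 5.59-fold, while the platelet-type lipoxygenase Alox12 fell, at -1.95 ± 0.21 and -1.66 ± 0.21. The lipoxygenase Alox8 rose at least 1.20-fold in wild-type ears and did not pass in knockout ears, where both means were below 16. Alox12e, the epidermal 12-lipoxygenase of the mouse, fell, at -1.41 ± 0.29 and -1.07 ± 0.29. The epidermal lipoxygenases Aloxe3 and Alox12b, which serve the skin barrier, fell as well, Aloxe3 at -1.09 ± 0.11 and -1.62 ± 0.11 and Alox12b at -0.59 ± 0.18 and -1.47 ± 0.18.

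Of 10 tested receptors, 2 rose and 2 fell in wild type and 2 rose and 3 fell in knockout ears. Ltb4r1, the high-affinity receptor of leukotriene B4, rose by 1.25 ± 0.15 and 1.22 ± 0.15, from 108 to 256 in wild type. The prostaglandin F receptor Ptgfr fell, at -1.37 ± 0.18 and -1.27 ± 0.18, and the prostaglandin D2 receptor Ptgdr fell to intensities below 16 in all 6 DNFB ears. The prostaglandin E2 receptor Ptger2 rose at least 1.70-fold in knockout ears and did not pass in wild-type ears (adjusted p = 0.107); its control ears lay at or near 16 or below. Among 8 genes of transport and breakdown, 1 rose and 3 fell in each genotype. Cyp4f18, which inactivates leukotriene B4 in mouse neutrophils, rose at least 8.64-fold and at least 11.9-fold.

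**Figure D4:**
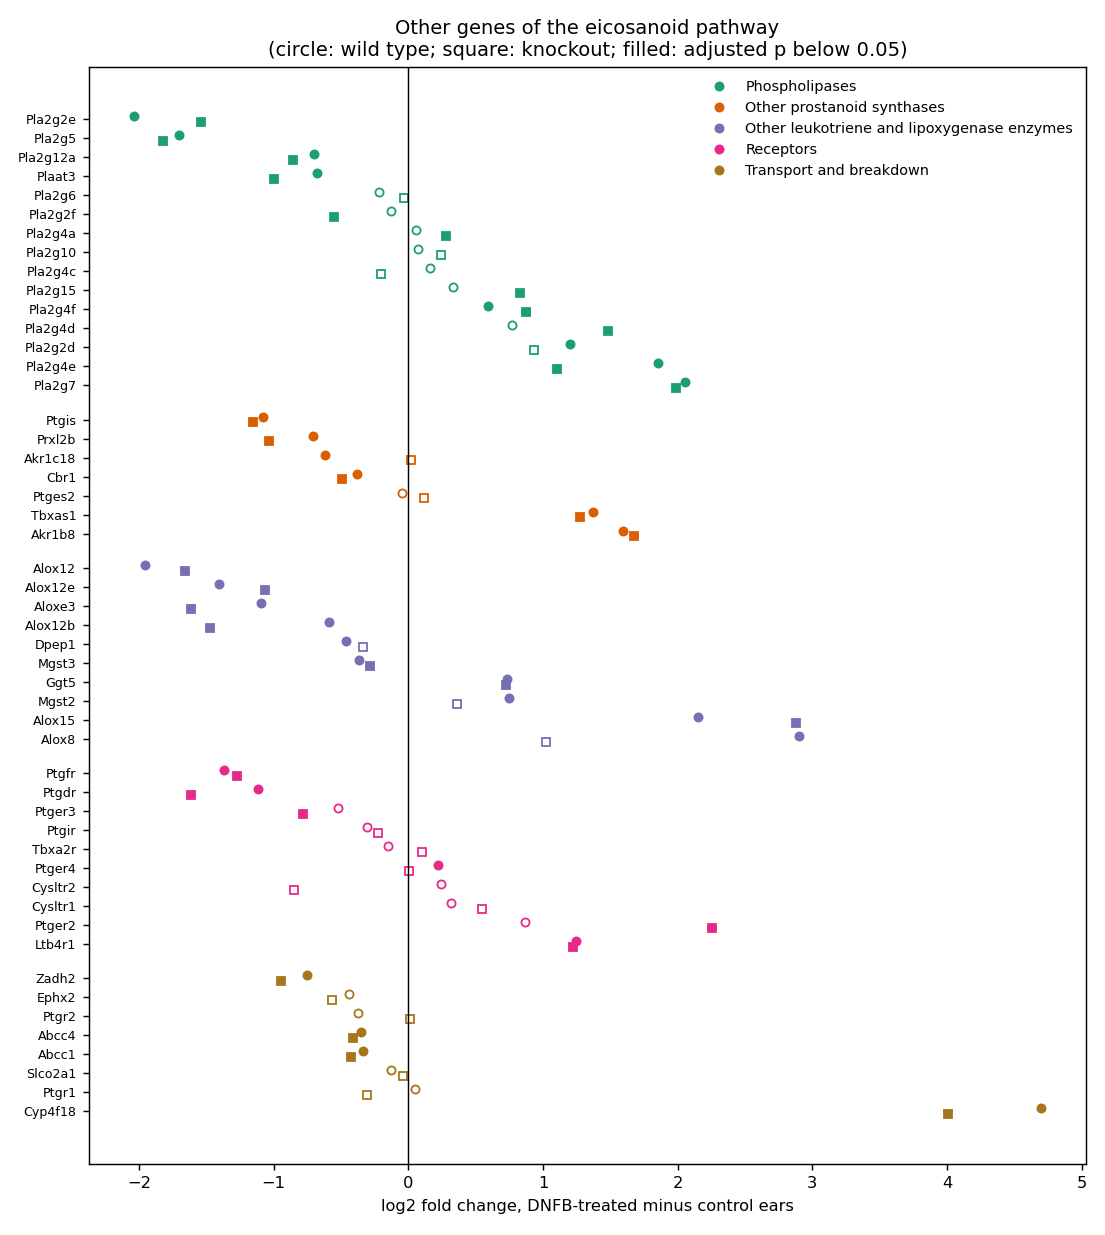
Log2 change from control to DNFB ears for the 50 tested genes of the pathway list, by class (colours), in wild-type (circles) and knockout ears (squares), filled where the adjusted p is below 0.05. Cyp4f18 stands at the far right and Pla2g2e, Pla2g5 and Alox12 at the far left, and values of genes below 16 in a group have no firm size.

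The genes most like each enzyme were ranked by Pearson's r of log2 values over the 12 arrays, among 12811 genes, and are a description only, since all points share the 4 groups. Alox5ap was closest to C1qb (r = 0.998), Hk3 (0.997) and Cyba (0.996), and 733 genes had an r above 0.95 with it. Ptges was closest to Blmh and Krt17 (both 0.991), a bleomycin hydrolase and a wound keratin, and to Acadl (0.990). Ptgs2 was closest to Snrpa1 (0.988), Taf5 and the growth factor gene Epgn (both 0.981), a ranking that takes in its control values below 16. For the genes that fell, the first in rank were Msx1 for Alox5 (0.977), Dcbld2 for Ltc4s (0.968) and Kdelr3 for Ptgds (0.946). With group means removed, the first were Cdc42se2 and Magea7-ps for Alox5ap (both 0.955), Gnaz for Ptges (0.984), Pde7b for Alox5 (0.964), Ank1 for Ltc4s (0.921) and Marchf9 for Ptgds (0.944).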

How the data were processed

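Total RNA of whole ears (5 µg) was labelled and 10 µg of cRNA was hybridized to 12 one-colour Affymetrix Mouse430_2 arrays, per the labels. The authors deposited 1 linear intensity per probe set and array, made with GCRMA per the submitters' processing notes (version and settings not given in the sources used here). GCRMA scales dim probe sets by a model of background, so changes below an intensity of 16 have no firm size. From the instrument records deposited with the arrays (unit: other) only hybridization times and fluidics modules were used; the washing runs were inferred here from them and are stated nowhere in the records.

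Log2 of the deposited intensity, with no pseudocount, was fitted with limma 3.58.1 in R 4.3.3 (lmFit and eBayes, 1 coefficient per group, all 12 arrays). Probe sets with at least 16 in at least 3 arrays (29460) were tested, with Benjamini-Hochberg adjustment across all of these. Error terms are the model's SE unless named SD. A gene is given by its tested probe set with the highest mean, and 9 of the 10 genes had one. All probe sets of the enzymes are described. Pathway genes were named if they passed with a change of at least 2-fold in a comparison, at most the 12 of largest size each. Ptgis and Ltb4r1, which passed with 2-fold changes but ranked lower, were named after their values were seen. In GEO's platform annotation, 34958 of the 45101 probe sets carry 1 gene symbol, 932 several and 9211 none. Where a group lay below 16 in all its arrays or in its mean, the fold is a lower bound against 16. The number of arrays limits the precision.

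The members and lists were chosen with earlier results of these data known. The labels tie 2 ears to each mouse, so the samples are paired by animal, and mouse was an alternative block. The deviations of the 2 arrays of a mouse from their group means correlated at -0.00426 to 0.0797 over probe sets. Other alternatives were the filter, the log scale, centring and quantile normalization of the arrays, the variance model, the washing run as a block, the samples in the fit, the mean over probe sets of a gene and leaving out each array. The differences within a washing run were added after seeing the data. The fit was tested on simulated data. An alignment of the enzymes' proteins was not run.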

Additional observations from a re-analysis of the deposited data

How the results depend on the processing

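The 21 changes after DNFB that passed kept their direction under every setting run, and 14 of them passed under every setting with a test. In wild-type ears 11 probe sets passed, 6 with washing run as a block (where the change rests on DNFB ear 1) and 8 to 11 when 1 array was left out. In knockout ears 10 passed, 8 with the run as a block and 9 to 11 when 1 array was left out. With mouse as a block the counts were 10 and 10, and the wild-type change of Lta4h was the call it moved. By gene means, 7 genes passed in wild-type ears, against 8, and 7 in knockout ears. The count for genotype in control ears went from 0 to 1 (Ptgds) with the filter at 64, log2(intensity + 16) or a variance trend with robust estimation, and was 0 to 1 when 1 array was left out, the 1 being without knockout control ear 1. The genotype count in DNFB ears and that for the difference of the responses were 0 under every setting run. Of the 80 estimates, 57 passed under no setting, and 29 of these changed sign under at least 1. Over the whole array, 5624 and 5791 probe sets passed with the run as a block, against 11211 and 11501. The genotype counts over the array ran from 3 to 92 in DNFB ears (35 as reported), from 4 to 206 in control ears (44) and from 0 to 4 for the difference of the responses (1). The causes were not tested.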
